A study of Mus musculus with 13 samples.

Results

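The microRNA gene entries described here are rows of a deposited expression table of mouse oocytes, chosen by symbol (Mir followed by a digit, or Mirlet) and by reaching 1 in any of the 4 columns. Of 23235 gene rows in the table, 615 matched by symbol and 97 of these met the value rule. The values that chose the entries are the same values described below, so counts and levels are given as descriptions without tests. One entry, Mir17hg, is a long host transcript of 2339 bases and not a hairpin. The other 518 microRNA rows reached at most 0.0407, and 513 of them were listed at 0 in all columns. The entry closest above the rule was Mir17hg, whose best value was 4.94, so no entry lay near the threshold of 1.

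The comparisons set oocytes without MTR4, an RNA helicase that works with the nuclear exosome, against WT oocytes, with nuclei and cytoplasms measured apart. The labels list 13 poly(A) RNA libraries made by Smart-seq2, each from 10 nuclei or 10 cytoplasms separated by micromanipulation. WT nuclei and cytoplasms were taken at day 14 (2 libraries each) and at day 21 (3 and 2), and Mtr4-null nuclei and cytoplasms at day 21 (2 each). The table holds 1 value per gene for WT nucleus, null nucleus, WT cytoplasm and null cytoplasm, with no day named for WT, so that genotype and age cannot be told apart. The labels used here give neither the strain nor the way Mtr4 was deleted. Without replicate columns no spread between libraries could be given, and differences are described by size only. In such pooled material, fewer cells that hold a transcript and less of it per cell cannot be told apart.

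MicroRNAs are made from long primary transcripts, many of which are introns or exons of other genes. In the nucleus the Microprocessor (DROSHA with DGCR8) cuts out a hairpin, which exportin 5 carries to the cytoplasm, where DICER1 releases the mature strand that guides an Argonaute protein. Cut primary transcripts are normally cleared by nuclear exonucleases, and microRNA activity is known to be weak in mouse oocytes. Mature microRNAs have no poly(A) tail. Libraries copied from poly(A) tails therefore report primary or host transcripts that cover the hairpin, not the mature strands printed next.

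RefSeq held a mature sequence for 87 of the 97 entries, 138 sequences in all with 131 different seeds, the bases 2 to 8 that pair with target mRNAs. Of these seeds, 6 were shared by entries of the set. The sequences printed here are those of entries that had signal in all 4 columns, of families whose members appeared in different columns, and of 3 entries that were high in null. They are from RefSeq on GRCm38.p6, written 5′ to 3′ in lower case with the seed in capitals. Of the 10 entries that reached 1 in every column, 9 had a sequence, and these give 8 strands:
miR-762: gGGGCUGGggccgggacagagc
miR-3471: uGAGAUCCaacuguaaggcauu
miR-678: gUCUCGGUgcaaggacuggagg
miR-3091-5p: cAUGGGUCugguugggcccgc
miR-703: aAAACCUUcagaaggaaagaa
miR-680: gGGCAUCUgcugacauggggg
miR-682: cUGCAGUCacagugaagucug
miR-1199-5p: uCUGAGUCccggucgcgcgg

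No seed recurred among these 8 strands. The hairpins Mir680-1 and Mir680-2 both give the miR-680 strand printed above, so their reads can be hard to assign. By position on GRCm38.p6, miR-762 is at chr7:127708534-127708555 on the plus strand and miR-678 at chr10:76207333-76207354 on the minus strand.

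The let-7 family, which restrains growth genes in many tissues, was present with 3 entries that share 1 seed:
let-7b-5p: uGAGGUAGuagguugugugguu
let-7c-5p: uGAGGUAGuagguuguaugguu
let-7d-5p: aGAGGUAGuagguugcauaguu
Position by position, let-7b-5p and let-7c-5p had 21 of 22 bases in common, and let-7b-5p and let-7d-5p 18 of 22. Mirlet7b and Mirlet7d had signal only in null nuclei (407 and 138), and Mirlet7c-2 only in null cytoplasms (336). Each of these entries was listed at 0 in the other 3 columns.

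Other shared seeds joined the cluster inside Mir17hg, known for driving cell growth, with hairpins elsewhere:
miR-17-5p: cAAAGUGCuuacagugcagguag
miR-106b-5p: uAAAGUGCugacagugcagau
miR-92a-3p: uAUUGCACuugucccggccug
miR-32-5p: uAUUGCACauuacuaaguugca
miR-18a-5p: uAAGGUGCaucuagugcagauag
The pair miR-17-5p and miR-106b-5p shares a seed, as does the pair miR-92a-3p and miR-32-5p. Mir17 and Mir92-1 had signal only in null cytoplasms (611 and 418), while Mir18 and Mir106b had signal only in null nuclei (190.3 and 491). Mir17hg itself had 0.358 in WT nuclei, 4.94 in null nuclei, 0.380 in WT cytoplasms and 3.51 in null cytoplasms. The long transcript was thus under 1 in both WT columns and above it in both null columns. Of its 6 hairpins in the table, Mir17, Mir18 and Mir92-1 each had signal in 1 null column and in no WT column, and Mir19a, Mir19b-1 and Mir20a were listed at 0 in all 4 columns.

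The cluster from Mir290 to Mir294, best known from embryonic stem cells and early embryos, was represented by:
miR-290a-5p: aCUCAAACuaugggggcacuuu
miR-293-5p: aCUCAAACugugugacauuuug
miR-294-5p: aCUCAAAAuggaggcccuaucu
The Mir290 and Mir293 strands share a seed, and the Mir294 strand differs from it within the seed. Mir290 had 581 in null nuclei, Mir293 had 664 in null cytoplasms and Mir294 had 100.1 in WT nuclei, each with 0 in the other columns. Each of these neighbouring hairpins had signal in 1 column only, as did 56 of the 97 entries. These values therefore do not show that the hairpins of the cluster differ between columns. The rows Mir291a, Mir291b, Mir292 and Mir295 were listed at 0 in all 4 columns.

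Mir24-1 and Mir3074-1 lie on opposite strands of 1 locus on chromosome 13 and share 68 bases:
miR-24-3p: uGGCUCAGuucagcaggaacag
miR-3074-5p: gUUCCUGCugaacugagccagu
These strands, at chr13:63301251-63301272 (plus) and chr13:63301249-63301270 (minus) on GRCm38.p6, overlap over 20 positions and are complementary at 20 of them. Mir24-1 had 126 in WT nuclei, 0 in null nuclei, 1179.6 in WT cytoplasms and 6337 in null cytoplasms. Mir3074-1 had 0 in both nuclei, 643 in WT cytoplasms and 1151 in null cytoplasms. The labels do not state a strand-specific library, so the reads of this pair cannot be told apart.

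The strands of 3 entries that were high in null and listed at 0 in WT complete the set:
miR-484: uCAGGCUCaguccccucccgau
miR-1894-3p: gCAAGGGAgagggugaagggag
miR-707: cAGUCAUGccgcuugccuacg
Their positions on GRCm38.p6 are chr16:14159630-14159651, chr17:35917938-35917959 and chr7:44849705-44849725, all on the plus strand.

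The table's oocyte identity was clear: 9 of 9 oocyte markers, such as the zona pellucida gene Zp3, were at 188 or more in every column. Of 10 granulosa cell markers, 1 reached 1 in each nucleus, 9 in WT cytoplasms and 10 in null cytoplasms, where their sums were 305 and 189. Inha made up 253 and 86.8 of these sums. In null against WT cytoplasms 5 of the 10 were at least 2-fold higher and 1, Inha, lower as deposited (5 and 0 relative to the median gene), and their share of the total was 0.00459% in WT and 0.00629% in null. Their part in the cytoplasmic results was not tested. Skiv2l2, which encodes MTR4, had 13.3 in WT nuclei, 3.54 in null nuclei, 187 in WT cytoplasms and 4.36 in null cytoplasms. Column totals ran from 594034 (WT nucleus) to 6637345.5 (WT cytoplasm), and the read depth is unknown. Values are FPKM by the table's name, but the column totals differ and the labels do not say how the columns were scaled. Differences are therefore given as deposited and relative to the median gene, that is, after division of each column by a size factor from median ratios.

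A value of at least 1 was found for 40 entries in WT nuclei, 49 in null nuclei, 35 in WT cytoplasms and 42 in null cytoplasms. These are 41.2%, 50.5%, 36.1% and 43.3% of the entries, beside 67.4%, 81.3%, 90.7% and 89.7% over all genes that met the value rule. The entries held 4.11%, 5.86%, 2.1% and 4.78% of the column totals, in the same order. These shares rested on few rows: the 3 highest entries gave 63.5% of the entries' sum in WT nuclei and 65.2% in WT cytoplasms. In the null columns the 3 highest gave 37.7% (nucleus) and 37.8% (cytoplasm). Signal in a single column was the common case. Of the 97 entries, 56 reached 1 in 1 column, 23 in 2 columns, 8 in 3 and 10 in all 4. Among the 16153 genes of the table that met the same value rule, 63.2% reached 1 in all 4 columns and 11.8% in 1. Single-column entries numbered 15 in WT nuclei, 20 in null nuclei, 9 in WT cytoplasms and 12 in null cytoplasms. The shares over all genes were 0.359%, 1.45%, 6.09% and 3.94%, in the same order.

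**Figure D1:**
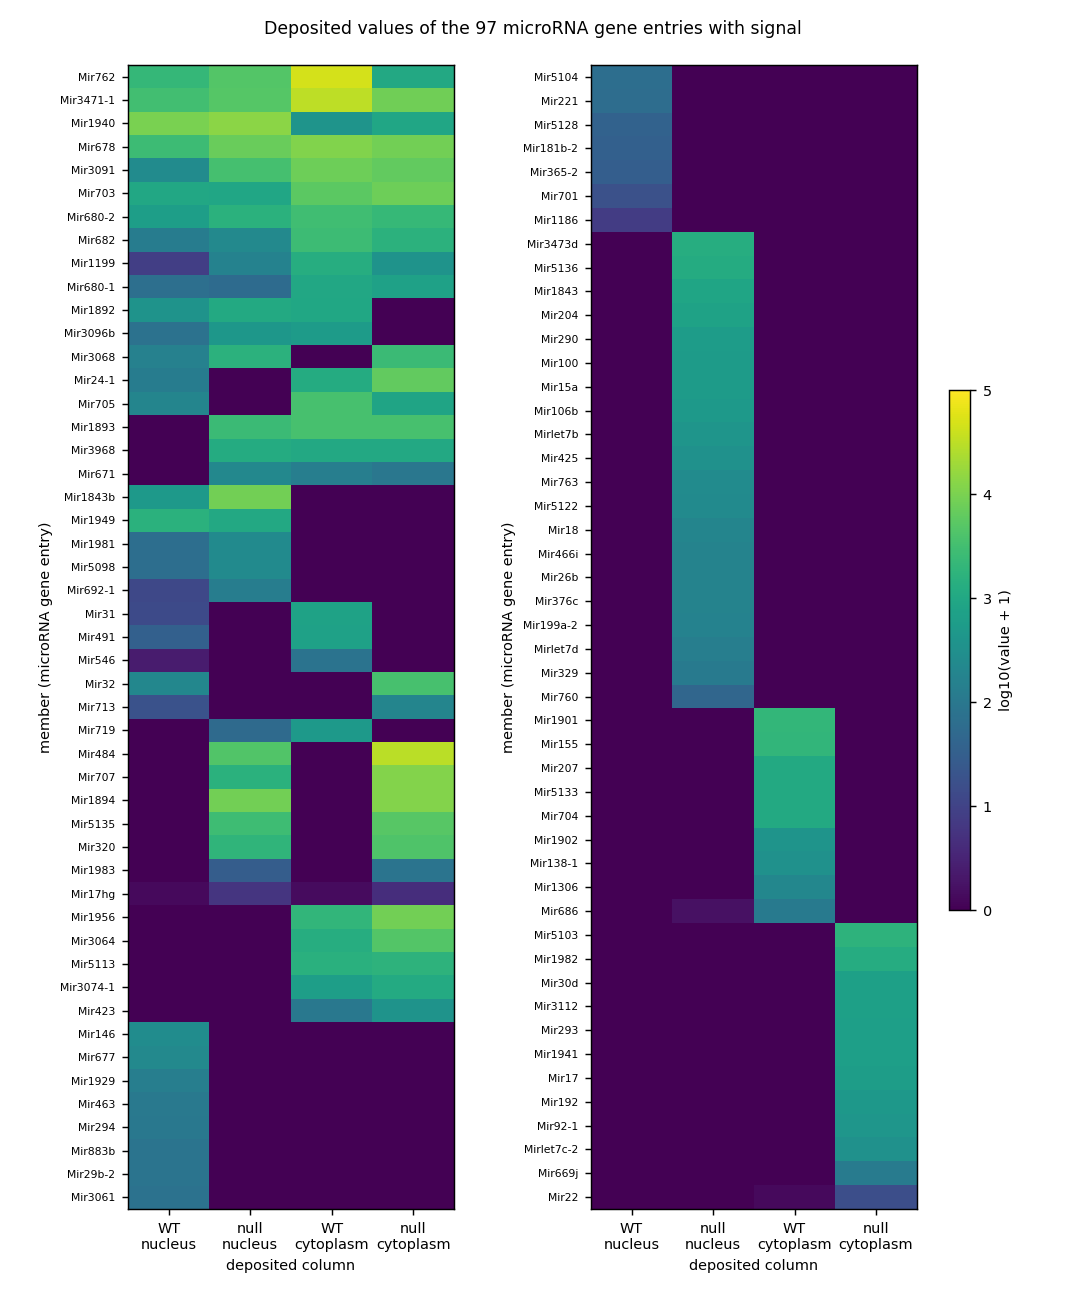
Deposited value of each of the 97 entries (rows, ordered by the number of columns at 1 or more) in the 4 columns, as log10(value + 1). The 10 entries at the top left have signal in every column, and 56 have it in 1 column.

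The 10 entries with signal in all 4 columns were Mir762, Mir3471-1, Mir1940, Mir678, Mir3091, Mir703, Mir680-2, Mir682, Mir1199 and Mir680-1. Each is described here with its 4 values. Mir762 had 2165 in WT nuclei, 4665 in null nuclei, 48073 in WT cytoplasms and 1053 in null cytoplasms. It was the highest entry of the WT cytoplasm and was 45.7-fold lower in null cytoplasms as deposited (24.7-fold relative to the median gene). This fold rests on a low value, since 1053 was the lowest of the entries under 80 bases with signal in null cytoplasms. Its hairpin overlaps an exon of Bcl7c, a chromatin remodelling subunit gene, on the opposite strand. Bcl7c had 89.9, 126, 1168 and 219 in the same order of columns.

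Mir1940, whose symbol had no RefSeq match and so no length, hairpin or place here, was the highest entry of both nuclei. It had 9773 in WT nuclei, 13579.9 in null nuclei, 384 in WT cytoplasms and 903 in null cytoplasms. It was 25.5-fold higher in nucleus than in cytoplasm in WT and 15.03-fold in null, as deposited. In WT it was the only 1 of 17 entries with signal in both compartments that was at least 2-fold higher in the nucleus as deposited, while 16 were lower. Over the 10712 such genes 1.46% were higher and 95.9% lower, so the lower entries were near the share over all genes. Relative to the median gene 5 of the 17 were higher and 4 lower, beside 9.65% and 5.84%.

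Mir3471-1 was among the 6 highest entries of every column, with 3088 in WT nuclei, 4782 in null nuclei, 31666 in WT cytoplasms and 8226 in null cytoplasms. No gene surrounds its hairpin in GENCODE M21. Mir678, in an exon of the arginine methyltransferase gene Prmt2, had 2628, 7159, 11089 and 8486 in the same order, and Prmt2 had 36.6, 60.4, 683 and 177. As deposited the WT nucleus was the lowest column of both entries. Relative to the median gene this turned: nucleus over cytoplasm in WT was 1.18 for Mir3471-1 and 2.87 for Mir678. The lowest and highest columns as deposited differed by 10.3-fold (Mir3471-1) and 4.22-fold (Mir678).

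Mir3091 lies in an intron of the ribosomal protein gene Rps21 and had 252 in WT nuclei, 3294 in null nuclei, 7889 in WT cytoplasms and 6316 in null cytoplasms. Rps21 had 364, 882, 4293 and 3048. The entry was 13.1-fold higher in null nuclei than in WT nuclei as deposited and 6.08-fold relative to the median gene. Mir1199 had 7.51, 163, 1319.6 and 376 in the same order of columns, 21.8-fold higher in null nuclei (10.1-fold relative). These were the largest nuclear ratios in null against WT among entries with signal in all 4 columns.

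Mir703 had 986 in WT nuclei, 903 in null nuclei, 5557 in WT cytoplasms and 7811 in null cytoplasms. Mir680-2 had 622, 1590.5, 2936 and 2271 in the same order, and Mir680-1 had 66.3, 54.1, 998 and 727. Mir682 had 125, 226, 2620.4 and 1598. Mir680-1 and Mir680-2 have no gene around them, Mir703 lies opposite an intron of Cfap299, and Mir682 overlaps the pseudogene Gm4149. For all 4 the cytoplasmic values were above both nuclear values as deposited. The direction turned, relative to the median gene, for Mir680-2 (nucleus over cytoplasm 2.57 in WT and 2.13 in null) and, in WT, for Mir703 (2.15).

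The comparison of null with WT nuclei asked which nuclear transcripts differ when MTR4 is missing. As deposited, 43 of 97 entries were at least 2-fold higher in null on the log2(value + 1) scale and 22 were lower. Over all 16153 genes the shares were 42.0% higher and 3.59% lower, so the higher entries were near the share over all genes. The median log2 difference was 0 over the entries and 0.79 over all genes. In 26 entries both nuclei were under 1. Relative to the median gene, 38 entries were higher and 25 lower, beside 24.3% and 16.3% over all genes.

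Most of these differences were signal against none. In all, 31 entries reached 1 in null nuclei only and 22 in WT nuclei only, beside 17.0% and 3.10% over all genes. The entries named as higher in null nuclei were listed at 0, or under 0.001, in WT nuclei, so no fold is given. Mir1894, in an exon of the phosphatase regulator gene Ppp1r10, had 8688 in null nuclei, 0 in both WT columns and 11836 in null cytoplasms. Ppp1r10 had 37.2 in WT nuclei, 44.2 in null nuclei, 525 in WT cytoplasms and 155 in null cytoplasms. The host thus had signal in every column although the entry had none in WT. In WT the lowest entry values at 80 to 89 bases, the length class of Mir1894, were 32.5 in nuclei and 385 in cytoplasms.

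Mir484 had 4315 in null nuclei, 30448 in null cytoplasms and 0 in both WT columns, and was the highest entry of the null cytoplasm. Its hairpin overlaps an exon of Marf1 on the opposite strand, a gene known for meiosis and RNA control in oocytes. Marf1 (4921513D23Rik in the table) had 9.30 in WT nuclei, 23.9 in null nuclei and 88.7 in each cytoplasm. Nde1, a centrosome gene that starts downstream of the hairpin, had 9.79, 4.38, 161 and 35.6. Neither gene showed the pattern of the entry. In WT both genes lay below the lowest entry values under 80 bases, the length class of Mir484 (83.0 in nuclei and 209 in cytoplasms).

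Mir5135 (opposite strand, intron of Plekhg3) had 2854 in null nuclei, 5081 in null cytoplasms and 0 in WT, while Plekhg3 had 30.3, 72.9, 274 and 221. Mir320 had 1846 in null nuclei and 4159 in null cytoplasms, again with 0 in WT. Mir1893 had 0.000131 in WT nuclei, 2552 in null nuclei, 3578 in WT cytoplasms and 3576 in null cytoplasms. Mir1893 therefore lacked signal only in WT nuclei, and its cytoplasmic values were nearly equal as deposited (null over WT 0.999, and 1.85 relative to the median gene).

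The entries named as lower in null nuclei were also at or near 0 there. Mir146, a regulator of innate immune signalling in other tissues, had 267 in WT nuclei and 0 elsewhere. Mir677, in an intron of the ATP synthase gene Atp5b, had 220.3 in WT nuclei and 0 elsewhere. Atp5b had 116, 168, 2755 and 578. Mir32 (intron of Tmem245) had 208 in WT nuclei, 0 in null nuclei, 0 in WT cytoplasms and 3480.1 in null cytoplasms.
Tmem245, a membrane protein gene listed as D730040F13Rik, had 5.42, 21.7, 51.0 and 43.5. Mir705 (exon of Rab11fip5) had 187 in WT nuclei, 0.000105 in null nuclei, 3455 in WT cytoplasms and 844 in null cytoplasms, and Rab11fip5 had 3.09, 8.51, 46.6 and 33.6. Mir1929 (intron of the autophagy gene Atg5) had 135 in WT nuclei and 0 elsewhere, with Atg5 at 152, 172, 2245 and 574. For the 4 of these 5 that have a host, the host gene had signal in null nuclei where the entry was at or near 0. The lowest entry values in null nuclei were 748 under 80 bases, 171 at 80 to 89 and 29.1 at 90 to 140. Atp5b, Tmem245 and Rab11fip5 lay below the lowest value for the length of their entry, and Atg5 lay above it. Whether an entry could show signal at the level of its host was not tested.

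Of the 18 entries with at least 1 in both nuclei, 12 were at least 2-fold higher in null and 0 lower as deposited, and 6 were higher and 3 lower relative to the median gene. Over the 10394 genes with at least 1 in both nuclei the shares were 44.0% and 2.43% as deposited and 17.3% and 16.8% relative. Mir1843b, in an intron of the ubiquitin ligase gene Cop1 (Rfwd2 in the table), had 477 in WT nuclei, 8568 in null nuclei and 0 in both cytoplasms. It was 18.0-fold higher in null as deposited and 8.37-fold relative. Rfwd2 had 39.1, 44.6, 263 and 169. Mir3068 (intron of Alkbh1) had 155 in WT nuclei, 1608 in null nuclei, 0 in WT cytoplasms and 2541 in null cytoplasms, 10.4-fold higher in null nuclei (4.84-fold relative). Mir1949 went the other way relative to the median gene, with 1578 in WT nuclei, 1036 in null nuclei and 0 in the cytoplasms, a relative ratio of 3.27 of WT to null.

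**Figure D2:**
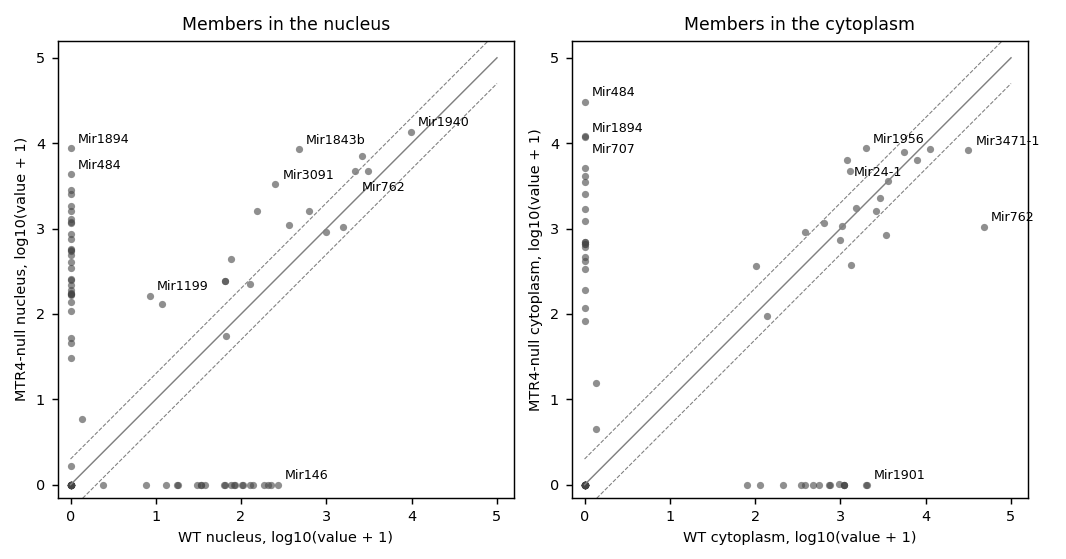
Each point is 1 of the 97 entries, with the WT value on the x axis and the MTR4-null value on the y axis, both as log10(value + 1), for nuclei (left) and cytoplasms (right). The solid line marks equal values and the dashed lines a 2-fold difference, and the points on the axes had signal in 1 genotype, such as Mir484 in null.

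In the cytoplasm, 27 entries were at least 2-fold higher in null as deposited and 19 lower, beside 15.9% and 43.4% over all genes. Relative to the median gene, 30 were higher and 18 lower, beside 22.7% and 18.5%. The median difference was 0 over the entries, 40 of which were under 1 in both cytoplasms, and -0.76 over all genes as deposited. Signal in null cytoplasms only was found for 22 entries and in WT cytoplasms only for 15, beside 7.27% and 8.18% over all genes.

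Those named as higher included Mir484, Mir1894, Mir5135 and Mir320, given above, and Mir707. Mir707, in an exon of the mTOR substrate gene Akt1s1, had 1591 in null nuclei, 12024 in null cytoplasms and 0 in both WT columns. Akt1s1 had 30.9, 35.1, 186 and 113. All 5 entries thus had signal in both null compartments and in neither WT column. In the set as a whole, 39 entries had signal in null columns only and 27 in WT columns only, beside 8.22% and 7.40% of all genes.

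Those named as lower were listed at 0 in null cytoplasms. Mir1901 had 2029.7 in WT cytoplasms and Mir155, the product of the Mir155hg transcript of immune cells, had 1975, each with 0 elsewhere. Mir207 had 1109 in WT cytoplasms and 0 elsewhere. It lies in an exon of the chaperone gene Dnaja1, which had 122, 106, 1541 and 548. Mir5133 and Mir704 both had 1091 in WT cytoplasms and 0 elsewhere. They lie in exons of Glce (43.6, 33.0, 405 and 180) and of the protein disulfide isomerase gene Pdia4 (67.8, 49.3, 1141 and 259). As deposited these hosts had their highest value in WT cytoplasms, the column in which 85.7% of all genes were at least 2-fold above WT nuclei.

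Among 20 entries with signal in both cytoplasms, 5 were higher and 4 lower as deposited, and 8 and 3 relative. Over the 13322 genes with signal in both cytoplasms the shares were 12.5% and 44.5% as deposited and 22.5% and 18.7% relative. Mir1956, in an exon of the cap-binding translation factor gene Eif4e, had 0 in both nuclei, 1975 in WT cytoplasms and 8768 in null cytoplasms. The entry was 4.44-fold higher in null as deposited (8.22-fold relative), while Eif4e had 112, 85.6, 1763 and 471. The WT value behind this fold was the same as that of Mir155, also of 65 bases. Mir3064, in an exon of the Microprocessor helicase gene Ddx5, had 0 in both nuclei, 1308 in WT cytoplasms and 4684 in null cytoplasms. Mir5113, in an exon of the Argonaute partner gene Tnrc6b, had 1525 in WT cytoplasms, 1735 in null cytoplasms and no signal in the nuclei. Hosts of the entries thus included genes of the microRNA pathway itself, as did Dgcr8, whose exon holds Mir1306 (209 in WT cytoplasms, 0 elsewhere).

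The compartments were compared to see where each transcript was held. In WT, 24 entries were at least 2-fold higher in the nucleus as deposited and 34 lower, beside 1.86% and 85.7% over all genes. Relative to the median gene, 29 were higher and 22 lower, beside 9.45% and 7.75%. Signal in WT nuclei only was found for 23 entries and in WT cytoplasms only for 18, beside 1.13% and 24.3% over all genes. The entries highest in WT nuclei against a WT cytoplasm at 0 were Mir1949, Mir1843b, Mir146, Mir677 and Mir32. Those highest in WT cytoplasms against a nucleus at or near 0 were Mir1893, Mir1901, Mir155, Mir1956 and Mir5113.

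In null, 31 entries were higher in the nucleus as deposited and 29 lower, beside 3.62% and 66.1% over all genes. Relative to the median gene 38 were higher and 26 lower, beside 12.3% and 9.29%. Signal in null nuclei only was found for 28 entries and in null cytoplasms only for 21, beside 2.86% and 11.3% over all genes. Mir3473d (intron of Ddx19b, 1309 in null nuclei) and Mir5136 (1166) had 0 in the other columns, and Ddx19b had 4.18, 3.98, 27.3 and 22.9. Mir1892, in an exon of the sphingolipid enzyme gene Sptssa, had 368 in WT nuclei, 1092 in null nuclei, 959.7 in WT cytoplasms and 0.0322 in null cytoplasms. Sptssa (1110002B05Rik in the table) had 19.9, 34.5, 193 and 291, highest in null cytoplasms.

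Small nucleolar and Cajal body RNA entries, which are also short rows, were counted for comparison. Of 88 such entries that met the same value rule, 71 were higher and 4 lower in WT nuclei against WT cytoplasms as deposited, where 24 and 34 of the 97 microRNA entries were. In null, 49 of the 88 were higher in the nucleus and 7 lower. With 1 value per group this contrast between the sets could not be tested.

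The place of the hairpin was not used to choose the entries. RefSeq gave a hairpin for 84 of the 97 entries and for 417 of the other 518 rows, and each was placed among GENCODE M21 genes other than small RNA genes. An exon of any annotated isoform counts as an exon here. Of the 84, 39 (46.4%) overlapped an exon of a gene on the same strand, 21 (25.0%) lay in an intron of such a gene, 9 lay in a gene on the opposite strand only and 15 (17.9%) had no gene around them. Of the 417 rows without signal, 21.8% overlapped a same-strand exon, 40.8% lay in an intron and 29.5% had no gene around them. Rows with signal were thus more often exonic by share, which is given here as a description.

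Hosts of entries with signal also had higher values. The median value in WT cytoplasms was 153 for the hosts of 28 same-strand exonic entries and 4.81 for the hosts of 71 such rows without signal. For intronic entries the medians were 49.3 (18 entries) and 15.5 (155 rows). An entry in an exon of a host can take reads from the host mRNA, and the labels do not say how such reads were assigned. As no strand-specific library is stated, the same can hold for an exon on the opposite strand, as at Mir762 and Mir484. The part of host reads in these values was not tested.

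Exonic and intronic entries differed in compartment. Of 39 exonic entries, 10 had signal in WT nuclei and 21 in WT cytoplasms. Of 21 intronic entries, 11 had signal in WT nuclei and 4 in WT cytoplasms. The same order held in null, with 15 and 18 of the exonic entries and 11 and 6 of the intronic entries in nucleus and cytoplasm. Over both genotypes, 18 of the 39 exonic entries had signal in cytoplasm only and 9 in nucleus only. Of the 21 intronic entries, 14 had signal in nucleus only and 3 in cytoplasm only. Over all genes that met the value rule, 15.6% had signal in cytoplasm only and 2.08% in nucleus only. By share, signal in nucleus only was thus more frequent among exonic and among intronic entries than over all genes. Signal in cytoplasm only was likewise more frequent among exonic entries, and among intronic entries it was near the share over all genes. Entries with no gene around them were seen in WT nuclei (10 of 15) more than in WT cytoplasms (3 of 15).

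**Figure D3:**
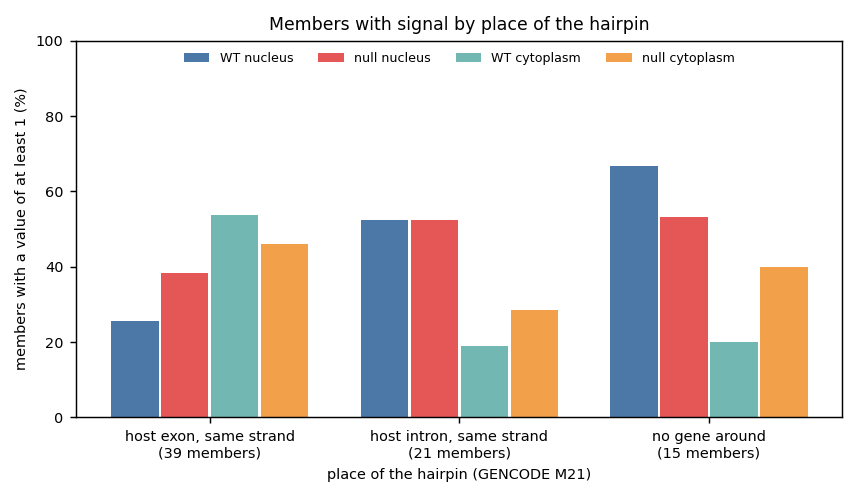
Share of entries with a value of at least 1 in each column (bars, y axis in percent), for 39 entries in a same-strand host exon, 21 in a same-strand host intron and 15 with no gene around the hairpin. Exonic entries reach 53.8% in WT cytoplasms and 25.6% in WT nuclei, and intronic entries 19.05% and 52.4%.

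By place, signal in null only and in WT only were both found. In the nucleus 7 intronic entries had signal in null only and 7 in WT only, and 4 had it in both. Among exonic entries 11 had nuclear signal in null only and 6 in WT only. In the cytoplasm 9 exonic entries had it in null only and 12 in WT only. Over all genes the shares with signal in null only and in WT only were 17.0% and 3.10% for nuclei, and 7.27% and 8.18% for cytoplasms. Direction of entry and host was compared, as deposited, for 28 exonic and 18 intronic entries. Over all genes 42.0% were at least 2-fold higher and 3.59% lower in null nuclei, and 15.9% and 43.4% in null cytoplasms. In null nuclei 6 of the 18 intronic entries were at least 2-fold higher together with their host, and 2 were lower while the host was higher. With the host within 2-fold, 4 intronic entries were higher and 4 lower. Of the 28 exonic entries, 2 were higher with their host and 3 were lower while the host was higher. With the host within 2-fold, 7 exonic entries were higher and 2 lower. In null cytoplasms 2 exonic entries were higher and 4 lower together with their host, 4 were higher while the host was lower and 1 was lower while the host was higher. No intronic entry was higher or lower together with its host there, and 3 were higher with the host within 2-fold. Among exonic entries 4 were higher and 5 lower with the host within 2-fold in null cytoplasms.

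The levels of the entries went with their length. In null nuclei, entries under 80 bases had a lowest value of 748 and a median of 1608 (11 entries with at least 1). Those of 80 to 89 bases had 171 and 546 (17 entries), and those of 90 to 140 bases had 29.1 and 169 (18 entries). In WT nuclei the lowest values were 83.0, 32.5 and 1.39 for the same length classes. In WT cytoplasms they were 209, 385 and 80.1, and in null cytoplasms 1053, 418 and 14.6. The longest class thus had the smallest value in all 4 columns, while in WT cytoplasms the middle class lay above the shortest. Ranks of entries within a column, such as the highest entries given above, mix these lengths.

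**Figure D4:**
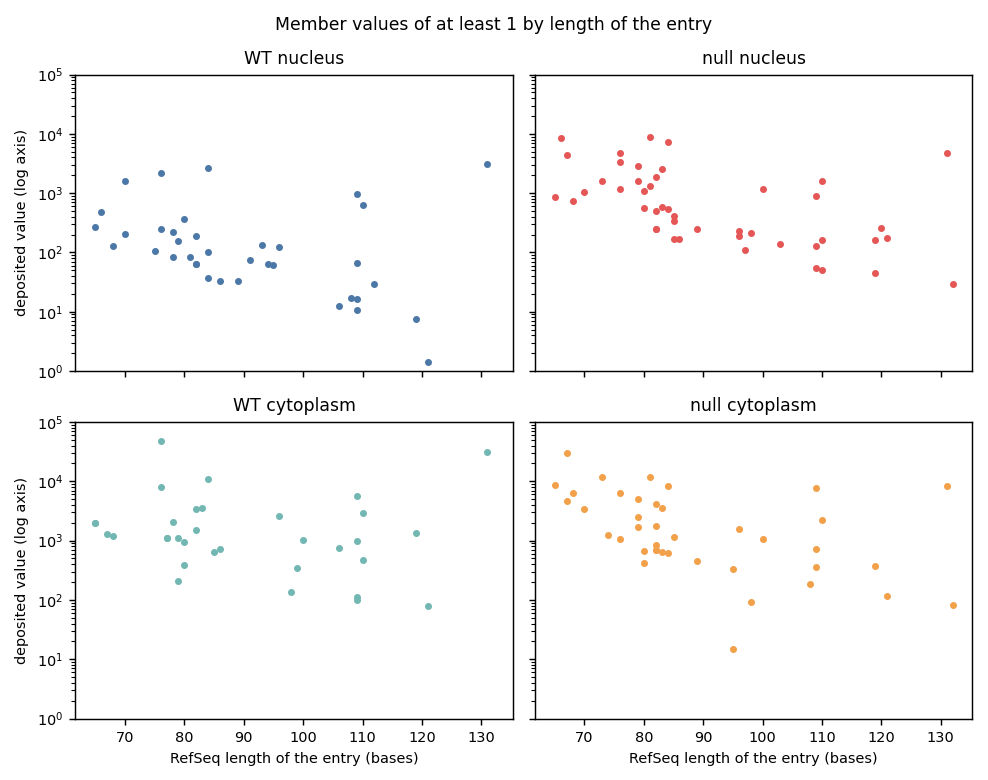
Values of at least 1 (y axis, log scale) against the RefSeq length of the entry in bases (x axis) in the 4 columns, without Mir17hg and entries that had no RefSeq length. The smallest value of entries from 90 to 140 bases lies below that of shorter entries in each column, for example 29.1 against 748 under 80 bases in null nuclei.

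Several values recurred exactly. In WT nuclei 7 of 40 entry values of at least 1 were shared with another gene of the table (17.5%, beside 0.239% over all genes), and in null nuclei 5 of 49 (10.2%, beside 0.206%). In WT cytoplasms 4 of 35 recurred (11.4%, beside 0.423%) and in null cytoplasms 2 of 42 (4.76%, beside 2.04%). Mir1981 and Mir5098, both of 82 bases, had 63.3 in WT nuclei and 245 in null nuclei. Mir155 and Mir1956, both of 65 bases, shared the value 1975 in WT cytoplasms, and Mir30d and Mir3112, both of 82 bases, shared 693 in null cytoplasms. Other values were whole multiples within 0.0001. Mir425 (343 in null nuclei) had 2 times the value of Mir26b (171), both of 85 bases, and Mir106b had 2 times that of Mir1981. In null cytoplasms Mir3091 had 6 times the value of Mir762, and Mir320 had 6 times the value of Mir30d. Values were also equal at unlike lengths. Mir26b and Mir376c (85 and 86 bases) shared 171 in null nuclei. Mir181b-2 and Mir491 (89 and 86 bases) shared 32.5 in WT nuclei. Mir204 shared 748 in null nuclei with Snord2 and Snord82, and Mir713 shared 17.3 in WT nuclei with Rnu11. Whether such steps come from small whole read counts was not tested. The counts themselves were not recovered, so the number of reads behind these values was not tested.

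The hairpins were also compared by base composition. Median length was 84 bases with signal and 83 without, and median GC content 51.5% and 48.8%. The run AAAAAA, searched on the hairpin strand, was found in 0 of 84 hairpins with signal and in 2.16% of the 417 without.

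Longer transcripts listed with known microRNAs, mostly their hosts, gave a view that rests on longer RNA. Of 12 such transcripts, which include Nde1 although it starts downstream of Mir484, 11 were in the table and 9 reached 1 in a column. In null nuclei 3 were higher and 2 lower as deposited (4 and 3 relative), and in null cytoplasms 2 were higher and 5 lower (2 and 1 relative). With 9 transcripts these counts are set beside the shares over all genes, 42.0% and 3.59% as deposited for nuclei and 15.9% and 43.4% for cytoplasms. Nde1 was lower in both compartments. Dleu2, the host of Mir15a, had 0.225 in WT nuclei, 5.76 in null nuclei, 2.04 in WT cytoplasms and 19.2 in null cytoplasms. Mir15a itself had 546 in null nuclei and 0 elsewhere. Dleu2 and Mir17hg were higher in null in both compartments on both scales. Meg3, the imprinted transcript next to a large microRNA cluster, had 4.50, 21.2, 19.4 and 16.1, and was higher in null nuclei only.
Mcm7, the replication helicase gene that holds Mir106b in an intron, had 28.6, 43.9, 479 and 139. Mir22hg (2210403K04Rik in the table) had 13.0, 5.00, 173 and 83.0, and its hairpin Mir22 had 0.00259, 0, 0.352 and 14.6. Mir22hg was lower in null nuclei on both scales. The Mir22 entry had signal only in null cytoplasms. Host transcript and hairpin entry thus had their highest values in different columns.

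Genes of microRNA processing and function were all present: 28 of 28 listed genes reached 1 in a column. In null nuclei 14 were higher and 0 lower as deposited, and 5 and 3 relative to the median gene. In null cytoplasms 2 were higher and 10 lower as deposited, and 8 and 4 relative. The shares over all genes were 42.0% and 3.59% as deposited and 24.3% and 16.3% relative for nuclei, and 15.9% and 43.4%, and 22.7% and 18.5%, for cytoplasms. The medians over all genes, 0.79 for nuclei and -0.76 for cytoplasms, lay in the same directions as deposited.

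In the Microprocessor step, Drosha, the nuclear RNase, had 13.9 in WT nuclei, 49.2 in null nuclei, 122 in WT cytoplasms and 62.0 in null cytoplasms. Dgcr8, its RNA-binding partner, had 4.76, 18.7, 45.8 and 85.1 in the same order. Dgcr8 was higher in null cytoplasms relative to the median gene (log2 difference 1.71), while Drosha lay at -0.09. Srrt, which links the cap-binding complex to primary transcripts, had 9.28, 65.7, 99.97 and 153, with relative log2 differences of 1.69 for nuclei and 1.47 for cytoplasms.

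Xpo5, the hairpin exporter, had 3.96, 5.78, 95.8 and 15.5, and was lower in null cytoplasms on both scales (-2.56 as deposited and -1.63 relative, log2). Dicer1, the cytoplasmic RNase, had 30.5, 82.6, 262 and 215, within 2-fold relative to the median gene in both compartments. Tarbp2, a DICER1 partner, had 69.8, 123, 1146 and 299 and was lower in null cytoplasms on both scales (-1.94 and -1.05).

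Among the Argonaute genes, which encode the effector proteins, Eif2c3 (Ago3) had 5.88, 6.34, 136 and 12.5 and the lowest cytoplasmic difference of the list (-3.34 as deposited and -2.39 relative). Eif2c2 (Ago2) had 2.30, 5.64, 50.7 and 21.1, and Eif2c1 (Ago1) and Eif2c4 (Ago4) were at 3.46 or below in every column. Tnrc6a, a scaffold that recruits deadenylases to Argonaute, had 2.27, 14.04, 20.1 and 52.2 and was higher in null in both compartments on both scales. Tnrc6b, the host of Mir5113, had 5.60, 5.43, 40.8 and 15.5, lower in null nuclei relative to the median gene (-1.07).

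Of the tailing and decay genes, Lin28a, the let-7 binding protein gene, had 9.15, 23.1, 58.1 and 86.1. Zcchc11, which adds uridines to let-7 hairpins, had 0.0680, 0.747, 3.44 and 12.1 and was higher in null cytoplasms on both scales. Papd5, which tails RNA for the exosome together with MTR4, had 16.05, 15.9, 91.9 and 77.7. Parn, a poly(A) nuclease gene, had 14.2, 27.4, 197 and 51.6 and was lower in null cytoplasms on both scales. Bcdin3d, a methyltransferase gene, had 2.52, 30.8, 47.7 and 67.1, with the largest nuclear difference of the list (3.18 as deposited and 2.38 relative).

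**Figure D5:**
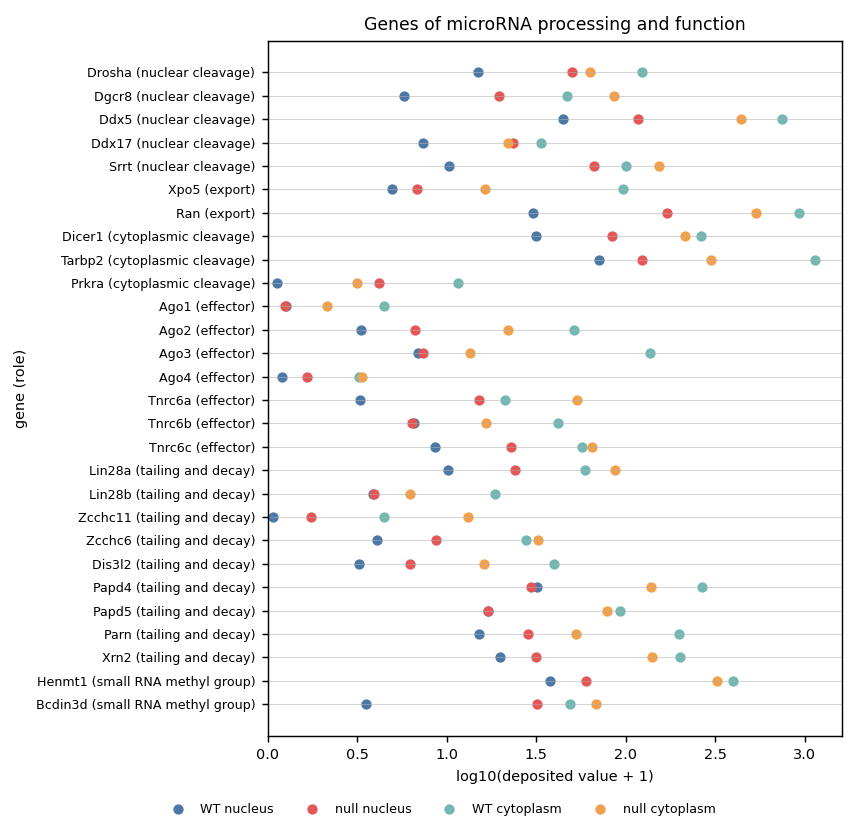
Values of the 28 processing genes (y axis, with role) in the 4 columns (colours), as log10(value + 1) on the x axis. As deposited the WT nucleus is the lowest column for most genes, with a median log2 difference to WT cytoplasms of -3.07, which is 0.17 relative to the median gene.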

How the data were processed

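The deposited table holds 1 column for each genotype and compartment, and no column for a single library. Per the submitters' processing notes, TopHat2 2.1.1, Cufflinks 2.2.1 and mm9 were used, with roles not given. The deposited values are FPKM by the table's name, but were treated as a score because column totals differ and no label says how the authors scaled the columns. The null columns were taken as the day 21 null groups, and the WT columns name no day.

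From these values, differences were taken on the log2(value + 1) scale and counted at 2-fold or more, among genes of at least 1 in at least 1 column. Adding 1 understates changes of low genes. No test was fitted, since no column is a single library. The relative scale divided columns by 0.281 (WT nucleus), 0.604 (null nucleus), 3.41 (WT cytoplasm) and 1.84 (null cytoplasm). Counting of calls was tested on simulated data. Symbols were matched to RefSeq GRCm38.p6 (94 of 97 entries), and hairpins were placed among GENCODE M21 genes, also on GRCm38. Coordinates are RefSeq's, not those of the authors' build. Python 3.11.15 and pandas 2.3.3 were used. Entries named with all values are the 6 highest of each column, those at 1 or more in all 4 columns, and the 5 largest differences in each direction. Families, recurring values and other entries were added after the values were seen. Members and lists were chosen with earlier results of these data known.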

Additional observations from a re-analysis of the deposited data

Results flagged for a closer look

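For 5 entries the difference between null and WT was at least 2-fold in opposite directions in nucleus and cytoplasm, as deposited and relative to the median gene (5.15% of 97). By the same rule 78 of all 16153 genes (0.483%) went in opposite directions. With 1 value per group this was not tested. The value given for each is the nuclear log2 difference of null and WT minus the cytoplasmic one, as deposited. Where a column was at 0 its size is set by the added 1.

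Mir32 (-19.47) had 208 in WT nuclei and 0 in null nuclei, but 0 in WT cytoplasms and 3480.1 in null cytoplasms. Mir713 (-11.76) had 17.3 and 0 in the nuclei and 0 and 189 in the cytoplasms. Mir24-1 (-9.42) had 126 and 0 in the nuclei and 1179.6 and 6337 in the cytoplasms. These 3 entries were lower in null nuclei and higher in null cytoplasms.

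Mir719 (14.61) had 0.0000214 in WT nuclei and 51.5 in null nuclei, with 474 and 0.000393 in the cytoplasms. Mir3096b (11.64) had 75.1 and 436 in the nuclei and 556 and 0 in the cytoplasms. These 2 entries were higher in null nuclei and lower in null cytoplasms.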

How the results depend on the processing

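The 12 counts of entries were recomputed under 84 alternatives, of which 68 stayed within 1.5 times the count given above. A median-ratio scale lowered the WT count of entries lower in the nucleus than in the cytoplasm from 34 to 22. Quantile normalization and equal column totals each lowered the same count to 23, just within 1.5 times. Asking for at least 1 in 2 columns left 41 entries. Null against WT then gave 23 higher and 7 lower in the nucleus and 15 and 10 in the cytoplasm, and 9 were higher in the nucleus in WT, and 11 higher and 17 lower in null. Without entries in a same-strand host 37 were left, among them those opposite a gene and those that could not be placed. Null against WT then gave 18 higher and 9 lower in the nucleus and 11 and 4 in the cytoplasm, and nucleus against cytoplasm gave 13 higher and 9 lower in WT and 12 and 10 in null. Both settings hold fewer entries by construction. No share over all genes is given under them, so these counts are not read against the other genes. Quantile normalization, equal column totals, adding 0.1 or 5, a minimum of 5 and no filter moved no count by more than 1.5 times. The last 2 could not do so. A minimum of 5 left 96 entries, and the rows added without a filter reached at most 0.0407. Their agreement was thus fixed in advance, although it is counted among the 68. No paired analysis was possible because the columns carry no replicate number. Leaving out replicates was likewise not run.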
